A study of Mus musculus with 14 samples.

Results

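The 44 genes described here code for proteins that start translation or charge tRNAs: 25 translation initiation factors and 19 cytosolic aminoacyl-tRNA synthetases. They were chosen by symbol from a list of the translation machinery, all 44 were found among the 49671 genes of both count tables, and all 44 passed the filter on low counts in both. The libraries come from satellite cells, the resident stem cells of skeletal muscle, sorted from C57BL/6J mice whose muscles (hind-limb, triceps and pectoral) were at rest. Each of the 14 libraries holds RNA of 1000 cells with β1-integrin and CXCR4 on their surface and without Sca1, CD31, CD45, Ter119 or CD11b. In the first dataset, 4 libraries are labelled FosGFP+ and 4 FosGFP-, both sorted from 4-month-old mice that carry FosGFP, for which the series text gives 4 mice. In the second, 3 libraries are labelled FoscKO, with a conditional knockout of the transcription factor gene Fos, and 3 are labelled Control, both from 6-month-old mice, for which the series text gives 3 mice. In that text FoscKO and Control cells are both described as FosGFP+ sorts. The labels used here give neither the Cre driver nor the mouse behind each library, so p-values measure the spread between these libraries, which may be technical in part.

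Initiation factors bring the ribosome to a start codon. The eIF4F complex holds the cap of the mRNA, with Eif4e as the cap-binding protein, Eif4g1 as the scaffold and the Eif4a helicases, and Eif4ebp1 keeps Eif4e from Eif4g1 until mTORC1 phosphorylates it. The eIF3 complex bridges mRNA and small subunit, eIF2 carries the initiator tRNA, eIF2B recharges eIF2 with GTP, and Eif5 and Eif5b act at start codon recognition and subunit joining. Each synthetase joins an amino acid to its tRNA, and those of class I and class II have unrelated catalytic folds. Several synthetase genes are known targets of ATF4, the transcription factor that is made when eIF2 is phosphorylated. Quiescent satellite cells are known for low protein synthesis and for phosphorylated eIF2.

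Promoter letters are shown first, because the ATF4 motif is the feature known to be shared by some synthetase genes. RefSeq promoters of build GRCm38.p6 were matched for 29 of the 44 genes, and the 250 bases before each start were searched on both strands for 3 motifs. TGATGNAA, the CEBP-ATF response element, stood before Aars, Gars and Tars, which charge alanine, glycine and threonine, and in 3.45% of all 32851 promoters. CACGTG, the E-box, stood before 8 of the 29 genes, among them Aars, Iars, Farsb, Eif4e, Eif4g1 and Eif5a, and in 6.02% of all promoters. TGANTCA, the site of AP-1, the dimer that Fos forms with Jun proteins, stood before Eif1, Eif3f and Qars, and in 6.75% of all promoters. Some genes have several promoters: of the 35 promoters of the 29 genes, 8.57% held the CEBP-ATF element, 28.6% the E-box and 8.57% the AP-1 site. The motifs did not overlap in the stretches of 80 bases below, which are printed 5′ to 3′ on the strand of the gene with the motif in capitals. The first 3 carry the CEBP-ATF element, Aars also an E-box, the next 2 an E-box, and the last an AP-1 site.
Aars, chr8:111033677-111033756, plus strand: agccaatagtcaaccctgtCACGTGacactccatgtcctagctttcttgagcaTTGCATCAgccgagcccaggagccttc
Gars, chr6:55037921-55038000, plus strand: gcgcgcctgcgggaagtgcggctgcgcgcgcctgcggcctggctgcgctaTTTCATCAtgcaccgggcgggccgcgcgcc
Tars, chr15:11399659-11399738, minus strand: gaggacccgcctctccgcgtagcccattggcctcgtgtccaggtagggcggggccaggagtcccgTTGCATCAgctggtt
Iars, chr13:49682024-49682103, plus strand: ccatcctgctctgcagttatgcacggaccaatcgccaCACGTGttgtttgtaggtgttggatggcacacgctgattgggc
Farsb, chr1:78488898-78488977, minus strand: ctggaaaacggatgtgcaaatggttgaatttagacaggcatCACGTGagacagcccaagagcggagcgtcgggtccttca
Qars, chr9:108507886-108507965, plus strand: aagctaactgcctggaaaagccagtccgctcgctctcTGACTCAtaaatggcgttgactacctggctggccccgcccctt
The element lies in reverse on the gene's strand in Aars, Gars and Tars, where its first base on that strand lies 112, 30 and 15 bases before the start. Starts are those of RefSeq, and the stretches of Aars and Qars lie wholly inside the gene as bounded in GENCODE M21. A match describes these letters and is no measured binding site.

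Counts in genes were 3806776 to 5983711 in the libraries labelled FosGFP+ and 2652230 to 4067543 in those labelled FosGFP-, and 4797954 to 10241655 in those labelled FoscKO and 5326686 to 6930696 in the Control libraries. Levels are CPM, counts scaled to library size by TMM, and fold changes are log2 values with their standard error (SE). A gene was called at an adjusted p under 0.05 in edgeR's quasi-likelihood test, adjusted by Benjamini-Hochberg over all genes tested. Satellite cell markers were present in both datasets: their summed level was 8595.0 to 11989.2 CPM in libraries labelled FosGFP+ and 4132.3 to 6696.7 CPM in those labelled FosGFP-, and 6357.1 to 11729.0 CPM in libraries labelled FoscKO and 5864.3 to 8839.2 CPM in those labelled Control. In the first dataset the markers of highest level were Sdc4 (means of 5415.9 CPM in FosGFP+ and 2068.5 CPM in FosGFP-), Vcam1 (1940.2 and 842.4) and Des (1893.4 and 892.5). Pax7 (-0.44) and Calcr (-0.51) lay below 0 with no call, so the sum does not measure the share of satellite cells. Fos mRNA was lower in the libraries labelled FosGFP+, opposite to the sign of a label that names a sort by FosGFP and not an mRNA level. It was not called lower in the libraries labelled FoscKO. It stood at 5242.6, 5397.7, 3098.0 and 4606.5 CPM in the libraries labelled FosGFP+, against 12882.8, 11591.7, 7908.4 and 11302.5 CPM in those labelled FosGFP- (log2 fold change -1.25 ± 0.21 SE, edgeR adjusted p = 0.000933). It stood at 8442.5, 2876.0 and 3804.5 CPM in the libraries labelled FoscKO, against 5043.7, 5025.4 and 4733.3 CPM in the Control libraries (0.03 ± 0.39, adjusted p = 0.996), and at -0.56 without the first FoscKO library. The labels do not say which part of Fos is deleted. Groups are named here by their labels, every direction below rests on them, and whether a label is wrong was not tested. FoscKO 1 stands apart from the other FoscKO libraries, with 30.2% of its reads in genes, against 15.9% to 22.7% in the rest of its group and 16.8% to 19.0% in those labelled Control. In the first dataset that share separated the groups, at 17.0% to 23.2% in libraries labelled FosGFP+ and 10.3% to 14.1% in those labelled FosGFP-, and FosGFP- 4, at 10.3%, was the lowest of its group for 26 members. Its part in the members' fold changes was not tested. In RNA from bulk cells, more cells with a transcript and more transcript per cell cannot be told apart.

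Most of these genes were higher in the libraries labelled FosGFP+ than in those labelled FosGFP-. Of the 44, 33 were called higher, 0 lower and 11 were not called, where 10.3% of all 20698 genes tested were called higher and 1.85% lower. The median log2 fold change was 0.98 over the 44 genes and -0.18 over all genes tested. Called members lay between 0.71 and 1.75, which is 1.64-fold to 3.37-fold, with edgeR adjusted p from 0.000114 to 0.0153. FosGFP+ and FosGFP- libraries were fully separate for 35 members, all higher in FosGFP+, as for 12.9% of all genes tested. Summed over the 44 genes, libraries labelled FosGFP+ held 13399.7 to 15844.2 CPM and those labelled FosGFP- 5433.1 to 7653.7 CPM.

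Level and scaling both bear on that count. Genes of middle and high level were mostly higher in FosGFP+: among the 1778 tested genes between 88.4 and 292.8 CPM, the range that holds the middle 22 members, 52.1% were called higher and the median log2 fold change was 0.68, while of those 22 members 17 were called higher (77.3%) with a median of 1.04. Scaling by total counts moved the median of all genes by -0.38 and the members' median to 0.60. With it 26 of the 44 members were called higher, against 4.97% of all genes and 517 of the 1778 genes in that level range. TMM factors from genes of at least 50 CPM moved the median of all genes by -0.59 and the members' median to 0.39. Then 22 members were called higher and 2 lower, Dars and Farsb, against 3.49% of all genes higher and 25.4% lower. Of the 1778 genes in that level range, 357 were called higher and 207 lower. These scalings shift every gene alike, so the members' median stayed 0.28 to 0.30 above that of all genes in their level range. Reads spread evenly over the genome, gauged on 1467 olfactory, vomeronasal and taste receptor genes, made up 6.4% to 10.7% of gene counts in libraries labelled FosGFP+ and 13.0% to 19.5% in those labelled FosGFP-. After these were subtracted, 30 members were called higher with a median of 0.80, and the calls of Hars, Kars and Lars were lost. Of all 15687 genes then tested 1314 were called higher. In the members' level range 647 of 1778 were, with a median of 0.50. Under the 2 other scalings the signs of uncalled members also turned, for 7 with total counts and for 9 with TMM from genes of at least 50 CPM.

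**Figure D1:**
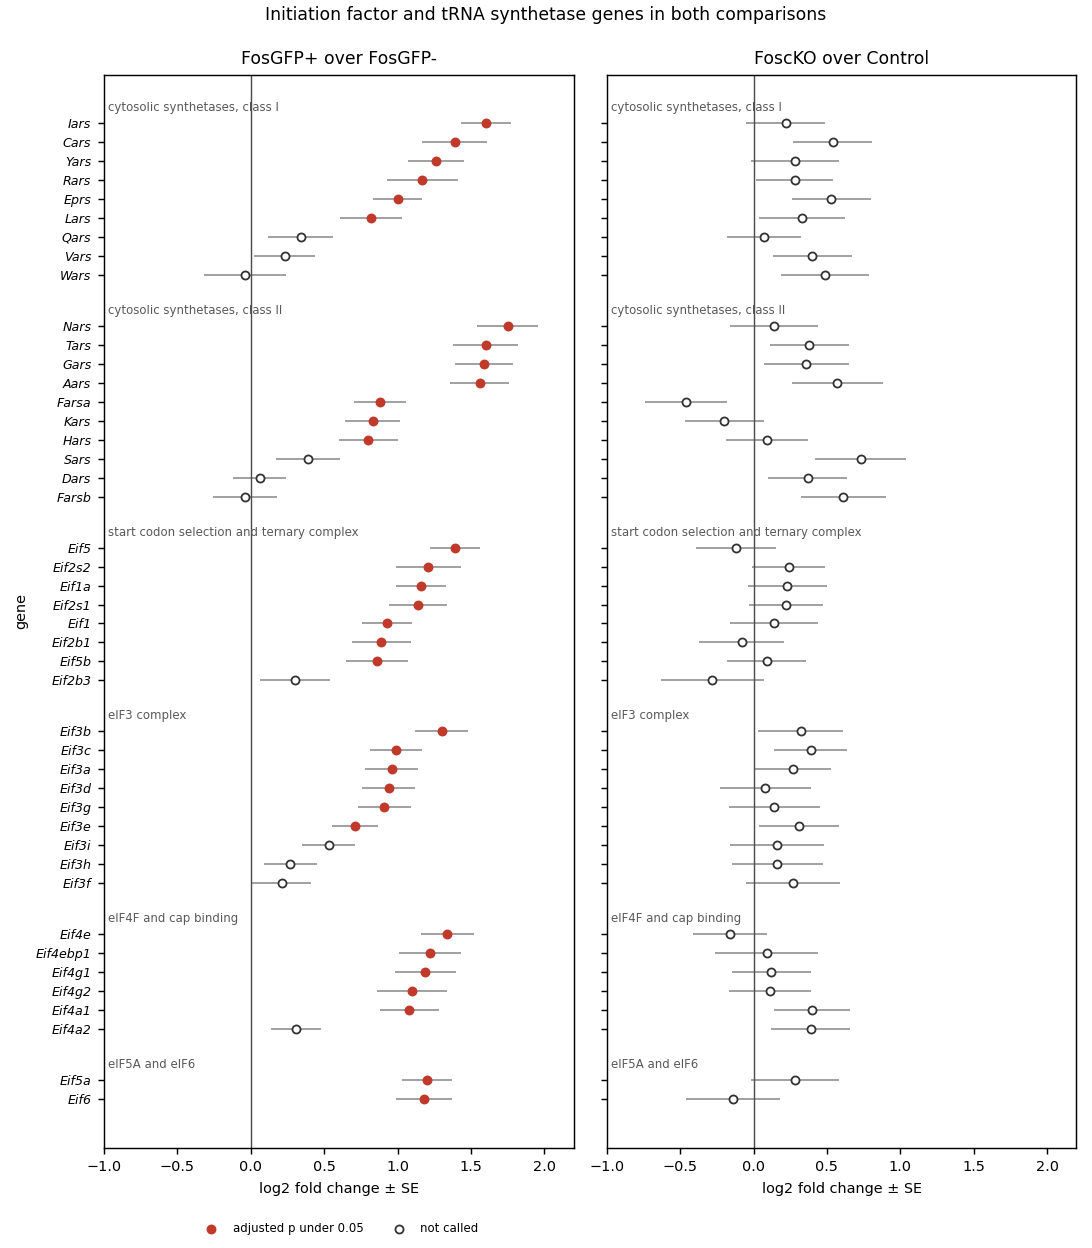
Log2 fold change of each of the 44 genes with its SE as a bar, grouped by role, for FosGFP+ over FosGFP- on the left and FoscKO over Control on the right; filled points passed an edgeR adjusted p under 0.05. On the left 33 genes are filled, all above 0, and on the right none is.

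Synthetases spanned the whole range of the fold changes, from 3.37-fold higher in FosGFP+ to no called difference. Of the 19, 13 were called higher, 6 of 9 in class I and 7 of 10 in class II, with a median log2 fold change of 0.88. Of all genes in the members' level range 52.1% were called higher, with a median of 0.68. Nars, which charges asparagine, had the largest fold change of the 44 genes under TMM scaling. It stood at 996.1, 1004.3, 725.9 and 790.7 CPM in libraries labelled FosGFP+, against 287.4, 246.6, 333.8 and 175.0 CPM in those labelled FosGFP- (1.75 ± 0.21, edgeR adjusted p = 0.000161). Every FosGFP+ library thus lay far above every FosGFP- library. Iars, the isoleucine enzyme (chr13:49682100-49734267 in GENCODE M21, build GRCm38), had the smallest p, with 301.0, 317.7, 258.0 and 270.9 CPM in libraries labelled FosGFP+ and 94.9, 99.6, 105.2 and 77.7 CPM in those labelled FosGFP- (1.60 ± 0.17, adjusted p = 0.000114). A copy of at least 95% identity over 200 bases or more exists in the transcript set for Iars. Reads that align to several places were set aside by the counting, so reads shared with the copy may be missing from the count of Iars.

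Gars, Aars and Tars are the 3 synthetases with a CEBP-ATF element in the window searched. Nars (1.75) and Iars (1.60) had fold changes as large, and whether the element bears on any of them was not tested. Gars had 339.3, 284.5, 300.4 and 305.1 CPM in libraries labelled FosGFP+ and 131.7, 106.8, 102.7 and 68.1 CPM in those labelled FosGFP- (1.59 ± 0.20). Aars had 828.3, 645.2, 548.4 and 588.4 CPM in libraries labelled FosGFP+ and 225.4, 216.5, 278.3 and 161.9 CPM in those labelled FosGFP- (1.56 ± 0.20), and 15.1% of its exonic length lies under another gene. Tars had 448.2, 503.6, 396.5 and 365.9 CPM in libraries labelled FosGFP+ and 148.8, 127.5, 194.1 and 94.1 CPM in those labelled FosGFP- (1.60 ± 0.22). For none of the 3 did the groups overlap, and edgeR adjusted p was 0.00021 for Gars, 0.000217 for Aars and 0.000264 for Tars. Of the 23 members called higher whose promoter was searched, the others held no such match in the window, Iars among them.

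Yars and Cars, the tyrosine and cysteine enzymes, followed. Yars had 404.9, 318.5, 341.3 and 288.5 CPM in libraries labelled FosGFP+ and 164.6, 165.4, 125.9 and 107.8 CPM in those labelled FosGFP- (1.26 ± 0.19, edgeR adjusted p = 0.000543). Cars had 437.5, 371.4, 303.5 and 292.2 CPM in libraries labelled FosGFP+ and 141.9, 107.4, 188.3 and 99.8 CPM in those labelled FosGFP- (1.39 ± 0.22, adjusted p = 0.000767). The groups were separate for both. Rars (1.17), Eprs (1.00), Farsa (0.88), Kars (0.83), Lars (0.82) and Hars (0.80) were also called higher. Scaling by total counts, or by TMM from genes of at least 50 CPM, ended the calls of Farsa, Kars, Lars and Hars, and those of Hars and Lars were also lost without FosGFP+ 2 or without FosGFP- 1.

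Not called were Sars (0.39), Qars (0.34), Vars (0.23), Dars, Farsb and Wars. Dars, the aspartate enzyme, had 101.3, 130.5, 155.3 and 138.5 CPM in libraries labelled FosGFP+ and 134.5, 136.4, 117.3 and 117.1 CPM in those labelled FosGFP- (0.06 ± 0.18, edgeR adjusted p = 0.865). Wars, the tryptophan enzyme, had 32.9, 48.0, 57.2 and 34.2 CPM in libraries labelled FosGFP+ and 60.4, 24.1, 54.6 and 37.9 CPM in those labelled FosGFP- (-0.04 ± 0.28, adjusted p = 0.934). Farsb, the beta subunit of the phenylalanine enzyme, had 32.6, 46.6, 45.2 and 32.9 CPM in libraries labelled FosGFP+ and 44.1, 41.6, 43.1 and 33.2 CPM in those labelled FosGFP- (-0.04 ± 0.22, adjusted p = 0.916). The libraries overlapped for all 3. Scaling by total counts turned the fold changes of Dars, Qars and Vars below 0, as did TMM from genes of at least 50 CPM, which did so for Sars too. In the multisynthetase complex, which gathers Eprs, Iars, Lars, Qars, Rars, Kars and Dars, 5 of 7 were called higher, and outside it 8 of 12, a grouping made after the values were seen.

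The alpha and beta subunits of the phenylalanine enzyme, which form one tetramer, differed in how they moved. Farsa had 127.7, 145.8, 124.0 and 126.3 CPM in libraries labelled FosGFP+ and 66.8, 59.1, 75.1 and 82.7 CPM in those labelled FosGFP- (0.88 ± 0.18, edgeR adjusted p = 0.00363), while Farsb is given above. Their ratio in each library, free of any scaling and chosen after the values were seen, was 3.91, 3.13, 2.74 and 3.84 in libraries labelled FosGFP+ and 1.52, 1.42, 1.74 and 2.50 in those labelled FosGFP-. In the second dataset it was 1.58, 1.59 and 1.17 in libraries labelled FoscKO and 4.29, 2.22 and 2.57 in those labelled Control. The groups were separate in both datasets, with the higher ratios in libraries labelled FosGFP+ in the first and in those labelled Control in the second. Neither Farsa nor Farsb was called in the second, where FoscKO and Control libraries separated for 5.75% of all genes higher and 6.47% lower. How many other pairs of members separate was not counted. Of the exonic length of Farsb, 9.47% lies under another gene.

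**Figure D2:**
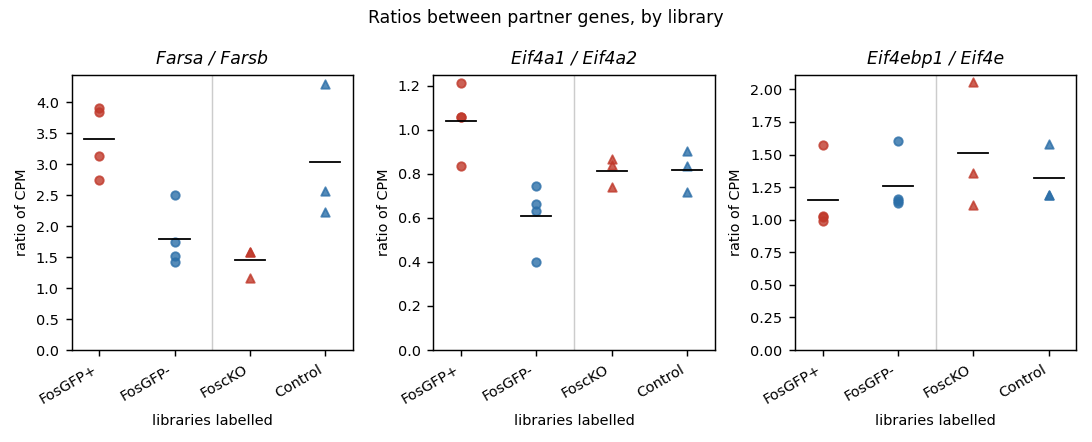
Ratio of CPM between partner genes in every library, with bars at group means, for Farsa over Farsb, Eif4a1 over Eif4a2 and Eif4ebp1 over Eif4e; circles are the first dataset and triangles the second. The ratio of Farsa to Farsb lies at 2.74 to 3.91 in FosGFP+ and at 1.42 to 2.50 in those labelled FosGFP-, and at 1.17 to 1.59 in FoscKO and at 2.22 to 4.29 in those labelled Control.

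Initiation factors covered a narrower range of fold changes. Of the 25, 20 were called higher, and all 25 fold changes were above 0, between 0.21 and 1.39 with a median of 0.99. Of all genes in the members' level range 52.1% were called higher and 90.7% were above 0. Under scaling by total counts 84.0% of the 25 were above 0, against 72.9% of genes in that range. Eif2b3, Eif3f, Eif3h and Eif4a2 were then below.

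In the group that selects the start codon and carries the initiator tRNA, 7 of 8 genes were called higher. Eif5, which makes eIF2 hydrolyse GTP at the start codon (chr12:111538016-111546752), had 1085.7, 1252.2, 890.3 and 1103.0 CPM in libraries labelled FosGFP+ and 416.3, 404.9, 455.5 and 379.9 CPM in those labelled FosGFP- (1.39 ± 0.17, edgeR adjusted p = 0.000161). Eif1a, which helps the small subunit scan, had 746.1, 828.0, 675.2 and 765.5 CPM in libraries labelled FosGFP+ and 273.1, 310.7, 410.6 and 356.3 CPM in those labelled FosGFP- (1.16 ± 0.17, adjusted p = 0.000497). The groups did not overlap for either. The alpha and beta subunits of eIF2 were higher, Eif2s1 at 1.14 and Eif2s2 at 1.21. The gamma subunit Eif2s3x, which is no member, averaged only 6.16 CPM in FosGFP+ and 4.37 CPM in FosGFP-. It was not called (0.49 ± 0.42, edgeR adjusted p = 0.472). Near-identical copies were searched for the members only, so whether reads of Eif2s3x are missing was not checked. Eif1 (0.93), Eif5b (0.86) and the eIF2B subunit Eif2b1 (0.89) were also called higher. With TMM from genes of at least 50 CPM these last 3 calls were lost, and those of Eif5b and Eif2b1 with total counts too. A second eIF2B subunit, Eif2b3, was not called (0.30). Eif1 has 13 near-identical copies in the transcript set, Eif2s1 has 2, and Eif1a and Eif2s2 have 1 each, so reads shared with the copies may be missing from their counts.

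Of the 9 eIF3 subunits among the members, 6 were called higher, where 52.1% of all genes in the members' level range were. Eif3b (chr5:140419328-140443360), part of the core on which the complex assembles, had 501.9, 527.6, 562.3 and 496.1 CPM in libraries labelled FosGFP+ and 212.3, 217.9, 262.2 and 157.7 CPM in those labelled FosGFP- (1.30 ± 0.18, edgeR adjusted p = 0.000319). Eif3c (0.99), Eif3a (0.96), Eif3d (0.94), Eif3g (0.91) and Eif3e (0.71) were called too, and 43.3% of the exonic length of Eif3d lies under another gene. The call of Eif3e was lost with total counts, and those of Eif3a, Eif3d, Eif3e and Eif3g with TMM from genes of at least 50 CPM. Eif3f, a subunit with a regulatory role in muscle growth, had 83.2, 130.3, 94.4 and 96.0 CPM in libraries labelled FosGFP+ and 67.3, 95.9, 87.7 and 98.6 CPM in those labelled FosGFP-, which overlapped (0.21 ± 0.20, adjusted p = 0.519). Eif3i (0.53) and Eif3h (0.27) were not called either, though the libraries of Eif3i did not overlap and DESeq2 called it; its fold change was -0.07 with TMM from genes of at least 50 CPM. Of the eIF3 subunits that are no members, Eif3j1 was called higher (1.11), and Eif3m (0.60), Eif3l (0.50) and Eif3k (0.06) were not called. Per kb of exonic length, mean levels of the 9 members ranged in libraries labelled FosGFP+ from 21.5 CPM for Eif3e to 156.0 CPM for Eif3b, and in those labelled FosGFP- from 13.1 CPM for Eif3e to 63.5 CPM for Eif3b. That length merges all annotated transcripts of a gene.

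Cap binding genes were higher together with their inhibitor. Eif4e (chr3:138526179-138559696) had 219.5, 252.5, 199.7 and 225.4 CPM in libraries labelled FosGFP+ and 81.5, 78.7, 110.4 and 83.6 CPM in those labelled FosGFP- (1.34 ± 0.18, edgeR adjusted p = 0.000255). Eif4ebp1 had 344.8, 260.9, 197.7 and 230.2 CPM in libraries labelled FosGFP+ and 130.3, 91.3, 125.1 and 95.6 CPM in those labelled FosGFP- (1.22 ± 0.21, adjusted p = 0.0011). The ratio of the inhibitor to its target was 1.57, 1.03, 0.99 and 1.02 in libraries labelled FosGFP+ and 1.60, 1.16, 1.13 and 1.14 in those labelled FosGFP-, and the groups overlapped. Phosphorylation, which sets the binding, is not read by RNA. The scaffold Eif4g1 (1.19) and its cap-independent relative Eif4g2 (1.10) were called higher.

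The helicase paralogs Eif4a1 and Eif4a2 differed. Eif4a1 had 159.4, 196.6, 182.6 and 181.4 CPM in libraries labelled FosGFP+ and 102.5, 86.7, 93.2 and 58.5 CPM in those labelled FosGFP- (1.08 ± 0.20, edgeR adjusted p = 0.00179). Eif4a2 had 190.9, 185.9, 150.5 and 170.7 CPM in libraries labelled FosGFP+ and 137.7, 130.4, 147.8 and 147.3 CPM in those labelled FosGFP- (0.31 ± 0.17, adjusted p = 0.247). The ratio of Eif4a1 to Eif4a2 was 0.835, 1.06, 1.21 and 1.06 in libraries labelled FosGFP+ and 0.744, 0.665, 0.63 and 0.398 in those labelled FosGFP-, with no overlap. This pair was chosen after its values were seen, and the genes have 3 and 1 near-identical copies. Part of the exons of Eif4a2 (13.3%) lies under other genes, small nucleolar RNAs among them.

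Eif5a, the factor that carries the amino acid hypusine and helps elongation past proline runs, had 823.3, 940.4, 957.4 and 1032.0 CPM in libraries labelled FosGFP+ and 445.3, 351.2, 463.0 and 374.0 CPM in those labelled FosGFP- (1.20 ± 0.17, edgeR adjusted p = 0.000315). Eif6, which keeps the ribosomal subunits apart, had 180.6, 254.6, 240.1 and 254.4 CPM in libraries labelled FosGFP+ and 92.9, 96.8, 131.7 and 89.3 CPM in those labelled FosGFP- (1.18 ± 0.19, adjusted p = 0.000864). Both were called, with no overlap between groups.

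**Figure D3:**
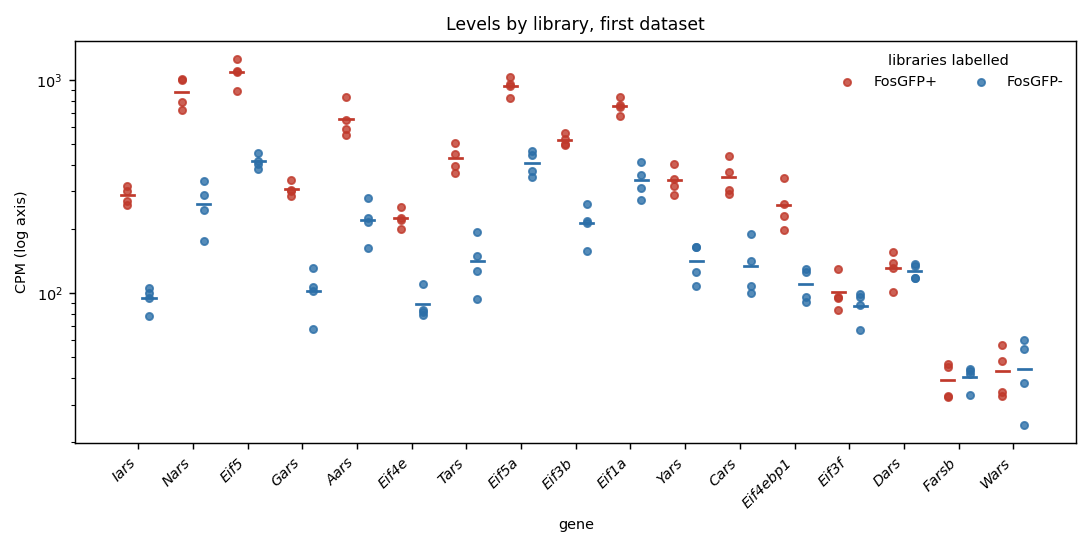
CPM on a log axis in the 4 FosGFP+ and the 4 FosGFP- libraries for the 12 members with the smallest p, Eif4ebp1, and the 4 members with the largest p, with bars at group means. The libraries separate for the first 13 genes and overlap for Eif3f, Dars, Farsb and Wars.

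Other genes of translation, from lists drawn up with earlier results of these data known, gave the following counts. Of 25 further initiation factors tested, 6 were called higher and 1 lower, with a median log2 fold change of 0.46. Eif1ax (1.28), a paralog of Eif1a, and the eIF4A cofactor Eif4h (0.98) were higher, and Eif2d (-0.76), which delivers tRNA without eIF2, was lower. Among the methionine enzyme Mars and 3 scaffold proteins of the multisynthetase complex, Eef1e1 (1.52) and Aimp2 (1.26) were called and Mars (0.56) and Aimp1 (0.22) were not. Of 16 mitochondrial synthetases 2 were called higher, Mars2 (0.95) and Yars2 (0.79). Their median was -0.39, against -0.18 for all genes tested and 0.88 for the 19 cytosolic enzymes. All of the 16 except Lars2 lay below the members' level range of 88.4 to 292.8 CPM, so these medians are not matched for level. Of 9 elongation and termination factors 3 were called, Etf1 (1.36), Gspt1 (1.09) and Abce1 (1.02), which act at stop codons and in recycling of ribosomes. Beside these counts, 10.3% of all genes tested were called higher and 1.85% lower, and 52.1% of those in the members' level range were higher. No test compared the lists with each other.

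Of 16 genes on a list of Atf4 and genes known to be under it, 7 were called higher and 0 lower, with a median of 0.82. Over all genes tested 10.3% were called higher, and in the members' level range 52.1%, with a median of 0.68. Psat1 (0.31), Slc7a11 (0.14), Phgdh (0.04) and Psph (-0.02) were among the 9 not called. Atf4 itself was not called (0.46, edgeR adjusted p = 0.0719), nor was Ddit3 (0.22, adjusted p = 0.515). The amino acid transporter chain Slc3a2 had 822.4, 877.5, 677.2 and 882.4 CPM in libraries labelled FosGFP+ and 273.6, 270.2, 340.5 and 194.7 CPM in those labelled FosGFP- (1.59 ± 0.19, edgeR adjusted p = 0.000161). Sesn2 (1.60), the asparagine synthetase gene Asns (1.55) and Shmt2 (0.93) were called as well. Of 7 genes for eIF2 kinases and the eIF2 phosphatase, 1 was called, the phosphatase subunit Ppp1r15b (1.33). Of 15 components and brakes of mTORC1, the activator Rheb was higher (1.05) and the brake Ddit4 lower (-2.01), and 13 were not called.

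Markers of other cell types that the sort could let through were also read. Endothelial markers summed to 193.6 to 229.5 CPM in libraries labelled FosGFP+ and 218.9 to 330.1 CPM in those labelled FosGFP-. Of these, 9 of 9 tested lay below 0 (median -0.62), 4 of them with separate libraries and 1 called lower, Ramp2 (-1.31). Over all genes tested the median was -0.18, only 39.7% lay above 0 and 1.85% were called lower. The share of all genes with separate libraries in that direction is not given here. Leukocyte markers summed to 55.1 to 97.3 CPM in libraries labelled FosGFP+ and 87.1 to 160.1 CPM in those labelled FosGFP-, with 5 of 6 below 0 (median -0.25) and 0 called. Fibro-adipogenic markers summed to 2028.6 to 2914.0 CPM in libraries labelled FosGFP+ and 1285.2 to 3090.9 CPM in those labelled FosGFP-, most of it Col3a1, which averaged 2018.2 CPM in libraries labelled FosGFP+ and 1641.4 CPM in those labelled FosGFP- (0.30, not called). The median of the 7 tested was -0.82, with Smoc2 called lower (-3.84), and Col1a1 (-1.49), Dcn (-0.95) and Pdgfra (-0.82) not called. Pericyte markers summed to 188.3 to 311.9 CPM in libraries labelled FosGFP+ and 163.1 to 415.0 CPM in those labelled FosGFP- with 1 of 6 lower, and fibre markers to 666.4 to 1307.3 CPM in libraries labelled FosGFP+ and 636.8 to 835.0 CPM in those labelled FosGFP- with 1 of 8 higher. None of these lists has a marker at 0 in all libraries. Among satellite cell markers the median was 0.20: 3 of 10 were called higher, Sdc4 (1.39), Vcam1 (1.20) and Des (1.09), and 4 lay below 0 with no call, among them Calcr (-0.51, libraries separate), Chrna1 (-0.45) and Pax7 (-0.44). The part of these markers, of depth and of the background in the members' fold changes was not tested beyond the subtraction above.

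In the authors' deposited table for this dataset, which lists 3422 genes, 2917 higher and 505 lower in FosGFP+ once its sign is turned round, 34 of the 44 genes appear. All 34 are higher, with the authors' adjusted p from 2.67e-15 to 0.018. They are the 33 called here and Eif3i.

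The second comparison sets libraries labelled FoscKO against libraries labelled Control, and none of the 44 genes was called. Fos mRNA was not called lower under the FoscKO label, and the labels do not say which part of Fos is deleted. These counts therefore cannot tell whether Fos was lost, and the values below compare the labels only. edgeR called 0 of all 21885 genes tested (0.0%), and 5.52% of them lay under 0.05 before adjustment. Of the 44 members 2 had an unadjusted p under 0.05. DESeq2 called 91 genes (0.807% of 11277) and 0 members. The members' median log2 fold change was 0.23, against 0.26 for all 1761 genes in their level range and -0.04 for all genes tested. Of the members 37 of 44 were above 0, as were 81.4% of genes in that range and 47.4% of all genes tested. Scaling by total counts put the members' median at 0.01, and leaving out the library FoscKO 1 put it at 0.02. FoscKO 1 was the highest of its group for 37 members, and FoscKO 2 the lowest for 41. Summed over the 44 genes, libraries labelled FoscKO held 15655.9, 9715.8 and 11527.3 CPM and those labelled Control 11893.7, 10627.5 and 9229.8 CPM, which overlap.

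**Figure D4:**
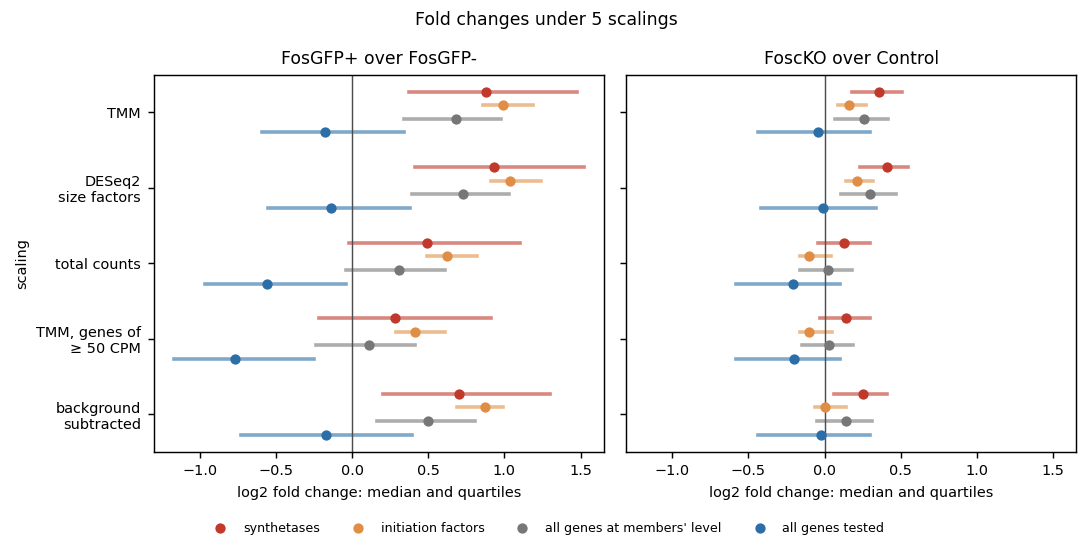
Median log2 fold change with quartiles under 5 scalings for the 19 synthetases, the 25 initiation factors, all genes in the middle level range of the members, and all genes tested. In FosGFP+ over FosGFP- the medians of both member groups lie above that of genes at their level under each scaling, and in FoscKO over Control with TMM the medians are 0.36 for synthetases, 0.16 for initiation factors and 0.26 for genes at their level.

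Libraries of FoscKO and Control separated for 2 members, Eprs and Eif3c, both higher in FoscKO, and for 0 lower, against 5.75% of all genes higher and 6.47% lower. Eprs, which charges glutamate and proline, had 696.8, 536.8 and 552.5 CPM in libraries labelled FoscKO and 462.8, 465.3 and 311.9 CPM in those labelled Control (0.53 ± 0.27, edgeR adjusted p = 0.914). Sars, the serine enzyme, had the smallest p, with 259.1, 114.1 and 153.4 CPM in libraries labelled FoscKO and 130.9, 106.7 and 80.5 CPM in those labelled Control (0.73 ± 0.31, adjusted p = 0.884). Its value was 0.34 without FoscKO 1, the library that was highest. Farsb had 60.0, 36.3 and 67.1 CPM in libraries labelled FoscKO and 33.3, 40.5 and 33.1 CPM in those labelled Control (0.61 ± 0.29, adjusted p = 0.902). Farsa had 94.9, 57.8 and 78.3 CPM in libraries labelled FoscKO and 143.1, 89.9 and 85.0 CPM in those labelled Control (-0.46 ± 0.28, adjusted p = 0.914).

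Aars had 826.3, 451.0 and 484.8 CPM in libraries labelled FoscKO and 517.5, 353.8 and 314.2 CPM in those labelled Control (0.57 ± 0.31, edgeR adjusted p = 0.914), and FoscKO 1 lay above the rest. Cars had 379.6, 218.8 and 250.4 CPM in libraries labelled FoscKO and 221.6, 178.4 and 183.1 CPM in those labelled Control (0.54 ± 0.27, adjusted p = 0.914), and FoscKO 2 lay within the Control range. Eif4ebp1 had 381.9, 141.8 and 191.4 CPM in libraries labelled FoscKO and 286.5, 220.9 and 165.2 CPM in those labelled Control (0.09 ± 0.35, adjusted p = 0.979), and its sign turned with total counts, with TMM from genes of at least 50 CPM and without FoscKO 1 (-0.43). The ratio of Eif4a1 to Eif4a2 was 0.865, 0.838 and 0.739 in libraries labelled FoscKO and 0.836, 0.719 and 0.902 in those labelled Control. Its groups overlapped, unlike those of the first dataset. The 33 members called higher in the first comparison had log2 fold changes from -0.46 to 0.57 in the second, with a median of 0.22, and 27 were above 0. The 11 others had a median of 0.37, with 10 above 0. Of all genes in the members' level range 81.4% were above 0 there. The datasets share no libraries, and no test compared them.

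**Figure D5:**
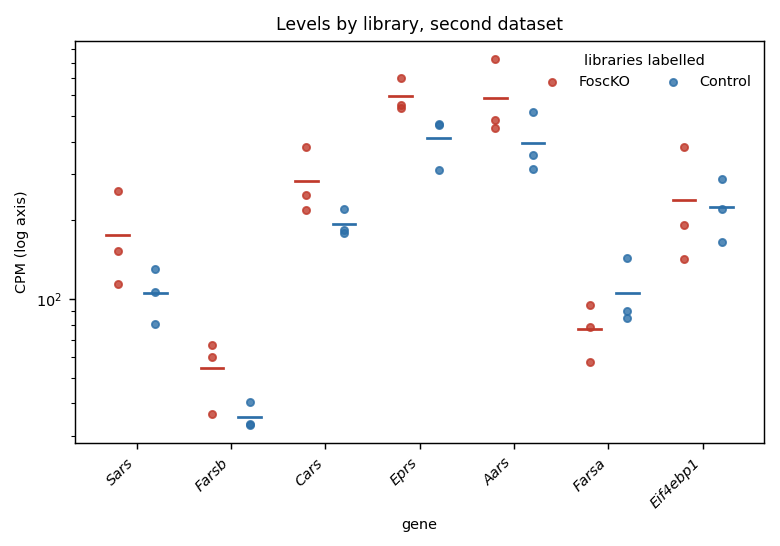
CPM on a log axis in the 3 FoscKO and 3 Control libraries for the 6 members with the smallest p and for Eif4ebp1, with bars at group means. FoscKO and Control libraries overlap for every gene shown except Eprs.

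No gene of the other translation lists was called in this comparison, where list medians lay between 0.00 for Mars with its scaffolds and 0.45 for ATF4 and its amino acid genes. Of the 16 genes on the ATF4 list, 14 lay above 0 and 2 below, Slc7a11 (-0.12) and Pycr1 (-0.90). Libraries did not overlap for 2 of the 16, both higher in FoscKO, as for 5.75% of all genes tested. These were the stress genes Ddit3 (1.44 ± 0.34, edgeR adjusted p = 0.288) and Chac1 (1.45 ± 0.40, adjusted p = 0.499). Ddit3 had 393.9, 158.6 and 168.3 CPM in libraries labelled FoscKO and 88.2, 102.5 and 74.9 CPM in those labelled Control, and Chac1 had 415.0, 118.0 and 175.2 CPM in libraries labelled FoscKO and 116.5, 74.1 and 69.1 CPM in those labelled Control, both with the highest value in FoscKO 1. Atf4 itself stood at 0.04. Fibre markers summed to 428.5 to 1578.4 CPM in libraries labelled FoscKO and 1382.3 to 2638.6 CPM in those labelled Control, with 8 of 8 below 0 and none called, and their part in these values was not tested. The authors' deposited table for this dataset lists 69 genes, 42 higher and 27 lower in FoscKO once its sign is turned round, and 0 of the 44 members.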

How the data were processed

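The authors deposited raw counts per Ensembl gene for each dataset. Libraries were made with SMART-Seq v4, which keeps no strand, and Nextera XT, per the labels' protocols. Build GRCm38, limma, DESeq2 1.20.0, STAR 2.5.0c and HTSeq 0.6.1 are named, without roles, in what the submitters' processing notes hold. The authors also deposited tables of log2 fold changes, p-values and mean normalized signal. The sign of these fold changes was turned round here, and 14 further columns were not used. Rows that name no gene held 83.7% and 79.3% of reads and were left out.

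Symbols and exonic lengths came from GENCODE M21 (GRCm38), with 49412 identifiers found. The 2 tables were fitted apart with edgeR 4.0.16 in R 4.3.3 (filterByExpr, TMM, robust quasi-likelihood F-test, two-sided, no covariate), and scripts were tested on simulated data. Near-identical copies have at least 95% identity over 200 bases. Beside the genes named above, Eif3e has 2 and Eif3h, Eif4e and Eif5a have 1 each. Values per library are given for the 12 smallest and 4 largest p in the first comparison, the 6 smallest in the second and Eif4ebp1; the library values of Farsa in the first comparison and of Eif4a1, Eif4a2, Eif6, Slc3a2, Ddit3 and Chac1 were added after their values were seen. The members and lists were chosen with earlier results of these data known. Alternatives were other scalings, filters and tests (DESeq2 1.42.0, limma-voom 3.58.1), background subtraction, a block for replicate number and each library left out. No pair of replicate libraries agreed within counting noise.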

Additional observations from a re-analysis of the deposited data

Results flagged for a closer look

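In 6 of the 88 groups of 4 libraries checked (each member in FosGFP+ and in FosGFP-), 1 library lay far from the other 3 by Dixon's gap, which chance gives in about 1 of 20 groups. Eif2s1 stood at 132.0 CPM in FosGFP+ 1, against 155.6 to 159.0 CPM in the other FosGFP+ libraries, and at 94.6 CPM in FosGFP- 3, against 57.6 to 61.7 CPM in the other FosGFP- libraries. Farsa stood at 145.8 CPM in FosGFP+ 2, against 124.0 to 127.7 CPM in the others of its group. In FosGFP- 3, Eif4e stood at 110.4 CPM, against 78.7 to 83.6 CPM. In FosGFP- 4, Vars stood at 49.3 CPM, against at least 89.8 CPM in the other 3, and Eif2b3 at 76.2 CPM, against 41.6 to 45.7 CPM. The groups of 3 libraries of the second dataset are too small for this check.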

How the results depend on the processing

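In the first comparison the members' median of 0.98 became 0.60 with total counts, 0.394 with TMM from genes of at least 50 CPM and 0.804 after background subtraction, and ranged from 0.933 to 1.067 with a library left out; 31 to 33 members stayed called then. Genes called numbered 5974 (722 higher, 5252 lower) with TMM from genes of at least 50 CPM and 1570 (1314 higher, 256 lower) after subtraction, against 2508. Signs turned for 7 uncalled members with total counts and 9 with TMM from genes of at least 50 CPM; of those named by the rule, these were Eif3f (-0.187 with total counts, -0.396 with TMM from genes of at least 50 CPM, -0.025 after subtraction), Dars (-0.322, -0.527 and -0.163 there), Farsb (0.044) and Wars (0.043) without a filter, and with a library left out Farsb from -0.12 to 0.077 and Wars from -0.225 to 0.157. In the second comparison 0 genes became 46 with total counts, 43 with TMM from genes of at least 50 CPM, 131 without a filter, 32 at a mean of 5 CPM, 6 with limma-voom, 91 with DESeq2, 15 after subtraction and 0 to 43 with a library left out (43 without FoscKO 1); 0 members were called in any, and their median ranged from 0.016 to 0.402 with a library left out. Fos there was -0.277 with total counts, -0.267 with TMM from genes of at least 50 CPM, -0.091 at 5 CPM, -0.129 with limma-voom, -0.145 after subtraction and -0.561 to 0.333 with a library left out. Eif4ebp1 was -0.193, -0.182, -0.025 at 5 CPM, -0.075 after subtraction and -0.425 to 0.376 with a library left out. The causes were not tested. With the replicate number as a block, 33 members and 2280 genes were called in the first comparison, and 0 members and 43 genes in the second, where Fos was -0.13; same-numbered libraries did not deviate together in both datasets (correlations from -0.04 to 0.21), so the numbers were not taken as pairs. The second comparison has 3 libraries a group.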
